A study of Mus musculus with 4 samples.

Results

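The SLAM family receptors and the adaptors with an SH2 domain that are listed with them were described in activated lung group 2 innate lymphoid cells (ILC2s), as 10 genes among the 22558 of the deposited table. They are the receptors Slamf1, Slamf6, Slamf7, Slamf8, Slamf9, Cd48, Cd84 and Ly9 and the adaptors Sh2d1a and Sh2d2a. The genes were chosen by gene symbol from a list drawn up with the levels and differences of these same libraries known, so the counts and calls given for them are a description and support nothing further. ILC2s lack antigen receptors and secrete type 2 cytokines. They had been sorted from lungs as lineage-negative CD45+ ST2+ CD127+ cells, and CD3ε, CD4, TCRβ, CD45R, CD11b and CD11c were among the antigens of the lineage stain. Of 4 RNA sequencing libraries, 2 were made from C57BL/6 mice (WT) and 2 from ICAM-1 KO mice, a constitutive knockout line whose name records a 129S4 origin and whose label gives C57BL/6 as background. All mice were 6 weeks old and had received 3 intranasal doses of 0.5 µg rmIL-33, and the lungs were taken on day 4. Each library was a pool of 4 mice, so the spread between libraries is a spread between pools and not between animals.

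SLAM receptors are immunoglobulin-like proteins on the surface of haematopoietic cells, and most of them bind a second copy of themselves on a neighbouring cell. Cd48 has no cytoplasmic tail and is instead a ligand for Cd244 and for Cd2. The tails of Slamf1, Slamf6, Slamf7, Cd84 and Ly9 carry tyrosine motifs that recruit small adaptors, of which SAP, the product of Sh2d1a, brings in the kinase Fyn. SAP and its receptors are best known from natural killer T cells and from helper T cells that contact B cells. Slamf8 and Slamf9 have short tails without these motifs and are known from myeloid cells. Sh2d2a encodes TSAd, a T cell adaptor that binds Lck and has an SH2 domain but does not belong to the SAP family.

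The libraries held 24796148 to 28782471 counts. Icam1, targeted in the knockout, spans bases 21015985 to 21028817 of chromosome 9 (mm10). Its counts were 2579 and 2630 in WT against 2812 and 3453, a log2 fold change of 0.33 (SE 0.108, adjusted p = 0.0745, quasi-likelihood test of edgeR, adjusted by Benjamini-Hochberg). Icam1 RNA was thus not lower. A count over the whole gene does not show whether the RNA carries the targeted allele, so it neither bears out nor refutes the label, and the second group is called here the KO-labelled libraries. The sorted cells carried the RNA of ILC2 genes, led by Arg1 and Id2, whose summed normalized count over 14 listed genes was 8946 and 9459 in the WT libraries and 7610 and 7805 in the KO-labelled libraries. RNA of genes listed as markers of other cell types was present as well, some of which ILC2s can also express. The T cell list summed to 721 and 820 against 1159 and 1361, the B and plasma cell list to 265 and 442 against 687 and 825, the list of macrophages, monocytes and dendritic cells to 522 and 498 against 847 and 1072, and the endothelium list to 92.9 and 100 against 226 and 236. The remaining lists summed to 15.2 and 28.5 against 36.3 and 27.9 for NK cells, 57.5 and 60.7 against 148 and 109 for neutrophils, 93.3 and 65.9 against 17.4 and 33 for eosinophils, 437 and 390 against 445 and 587 for basophils and mast cells, 12 and 12.6 against 19.3 and 20.5 for platelets and 68.2 and 35 against 389 and 797 for alveolar epithelium. Epx, an eosinophil gene, was at 0 in both KO-labelled libraries and Camp, a neutrophil gene, at 0 in both WT libraries. Neither list moved as one, as further genes chosen after their values were seen show. Of the eosinophil genes, Prg2 also fell (log2 fold change -4.06), but Ccr3 rose (1.60, adjusted p = 0.0192 by edgeR). Of the neutrophil genes, S100a9 rose (1.32), but Retnlg had 0.02 (adjusted p = 0.969 by edgeR). Normalized counts are those of the authors, made by upper quartile normalization. In these bulk samples, fewer cells of a type and less RNA per cell cannot be told apart.

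The 8 receptor genes lay together on chromosome 1 over 1002 kb. The first 6, in the order Ly9, Slamf7, Cd48, Slamf1, Cd84 and Slamf6, filled 365 kb with gaps of 25 to 61.9 kb between them. Slamf9 followed after 522.2 kb and Slamf8 after a further 103.2 kb. Slamf6, Slamf7 and Cd48 overlap Gm37065, Gm37787 and Gm37010, which had 0 to 21 counts in any library, and Sh2d1a overlaps Tenm1 on the other strand. Sh2d1a lay on chromosome X from 42502453 to 42529330, and Sh2d2a on chromosome 3 from 87846755 to 87855722. The promoters of the 4 receptors that passed the test in the comparison below, and of Cd48, the receptor with the highest level, are shown because they are the stretches upstream of the genes that differed and of the one that dominates the family. The sequences are from RefSeq on GRCm38.p6, the patch level that carries mm10 coordinates, 250 bases before to 50 after the start, on the strand of the gene. Of 10 members, 7 had an entry. The windows are chr1:171766882-171767181 for Slamf1, chr1:171917212-171917511 for Slamf6, chr1:171648950-171649249 for Slamf7, chr1:172475110-172475409 for Slamf9 and chr1:171681742-171682041 for Cd48. For Slamf7 the RefSeq start is 4036 bases inside the gene as the deposited table gives it, and for the others at most 53 bases away. Capitals mark a match to the ETS, RUNX, AP-1 or E-box motif on either strand.
Slamf1: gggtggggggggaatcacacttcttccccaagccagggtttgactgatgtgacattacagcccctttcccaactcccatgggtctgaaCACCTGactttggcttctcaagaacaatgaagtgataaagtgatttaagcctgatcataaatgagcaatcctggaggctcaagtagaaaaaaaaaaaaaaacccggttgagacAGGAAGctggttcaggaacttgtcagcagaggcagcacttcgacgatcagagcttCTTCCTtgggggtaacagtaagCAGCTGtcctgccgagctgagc
Slamf6: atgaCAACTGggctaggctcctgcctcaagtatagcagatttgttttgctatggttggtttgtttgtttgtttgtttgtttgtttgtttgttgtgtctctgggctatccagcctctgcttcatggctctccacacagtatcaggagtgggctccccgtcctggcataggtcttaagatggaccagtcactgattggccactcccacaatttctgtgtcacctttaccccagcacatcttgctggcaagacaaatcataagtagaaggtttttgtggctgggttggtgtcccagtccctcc
Slamf7: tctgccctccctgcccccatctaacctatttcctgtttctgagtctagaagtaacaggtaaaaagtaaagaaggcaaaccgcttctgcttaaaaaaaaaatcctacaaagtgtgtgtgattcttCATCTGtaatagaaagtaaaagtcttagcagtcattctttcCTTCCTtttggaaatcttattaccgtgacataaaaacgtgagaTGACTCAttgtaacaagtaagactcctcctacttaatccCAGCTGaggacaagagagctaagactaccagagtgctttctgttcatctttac
Slamf9: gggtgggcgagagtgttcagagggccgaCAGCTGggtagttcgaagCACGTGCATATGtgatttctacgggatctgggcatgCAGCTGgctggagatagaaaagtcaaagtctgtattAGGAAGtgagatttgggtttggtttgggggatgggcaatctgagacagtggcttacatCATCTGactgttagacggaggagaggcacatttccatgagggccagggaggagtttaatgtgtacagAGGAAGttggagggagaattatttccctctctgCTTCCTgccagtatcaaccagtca
Cd48: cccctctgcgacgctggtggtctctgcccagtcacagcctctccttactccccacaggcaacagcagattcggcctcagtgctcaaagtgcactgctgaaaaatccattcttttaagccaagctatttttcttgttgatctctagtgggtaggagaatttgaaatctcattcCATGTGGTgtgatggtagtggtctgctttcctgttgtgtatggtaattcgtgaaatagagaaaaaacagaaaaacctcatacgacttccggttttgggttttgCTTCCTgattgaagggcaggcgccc

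The motifs searched on both strands were AGGAAG for ETS, then TGTGGT for RUNX, then TGANTCA for AP-1, then CANNTG for the E-box, then AGATAA for GATA, and TATAAA for the TATA box. An E-box stood in 7 of 7 member promoters and in 72.3% of 32851 RefSeq promoters of the same length, and 5 of 7 held the ETS motif, against 35.4% of all. The E-box and RUNX matches of Cd48 share letters, and 2 E-boxes of Slamf9 abut each other, so that the capitals run on. The AP-1 motif was in 3 of 7 (Slamf7, Cd84 and Slamf8), against 7.81%, and the RUNX motif in 2 of 7 (Cd48 and Cd84), against 16.8%. Of the genes with either motif, only Slamf7 passed the test in the comparison below. No member promoter held the GATA or the TATA box letters, which were in 11.2% and 13.6% of all. A match of letters is a description and not a binding site. The windows had a GC content of 39% in Slamf7 to 52.3% in Slamf8, with a median of 48.3%, and 52.7% was the median of all promoters.

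Among the receptors, Cd48 had by far the highest level when the normalized count was divided by the length of the merged exons in kb. It stood at 102 ± 9.32 (SD, n = 2) per kb in WT and 128 ± 0.347 in the KO-labelled libraries. Cd84 followed at 12.4 ± 0.578 and 15 ± 1.25, and Ly9 at 12 ± 0.868 and 15.6 ± 0.154, and the WT libraries of these 2 genes overlapped. Slamf6, Slamf7, Slamf9, Slamf1 and Slamf8 lay between 0.589 and 1.2 per kb in WT, and neighbours in that order overlapped between libraries. Of the adaptors, Sh2d2a was high at 92.3 ± 2.95 and 76 ± 0.667 per kb and Sh2d1a low at 0.822 ± 0.00763 and 2.19 ± 0.614. Cd48 held 80.3% and 75.7% of the summed receptor level per kb in the WT libraries and 73.7% in each of the others. Slamf6 held 0.528% and 1.33% in WT and 2.43% and 2.79% in the KO-labelled libraries, and Slamf9 0.463% and 0.877% against 3.3% and 3%. In the KO-labelled libraries, Slamf9 and then Slamf6 stood above Slamf7, Sh2d1a and Slamf1, whose libraries overlapped, and Slamf8 was lowest. With the length of the longest transcript in place of the merged exons, Slamf6 stood above Slamf9 there, at 8.56 ± 0.867 against 5.46 ± 0.349 per kb, and in WT Sh2d2a stood above Cd48, at 122 ± 3.91 against 103 ± 9.35.

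**Figure D1:**
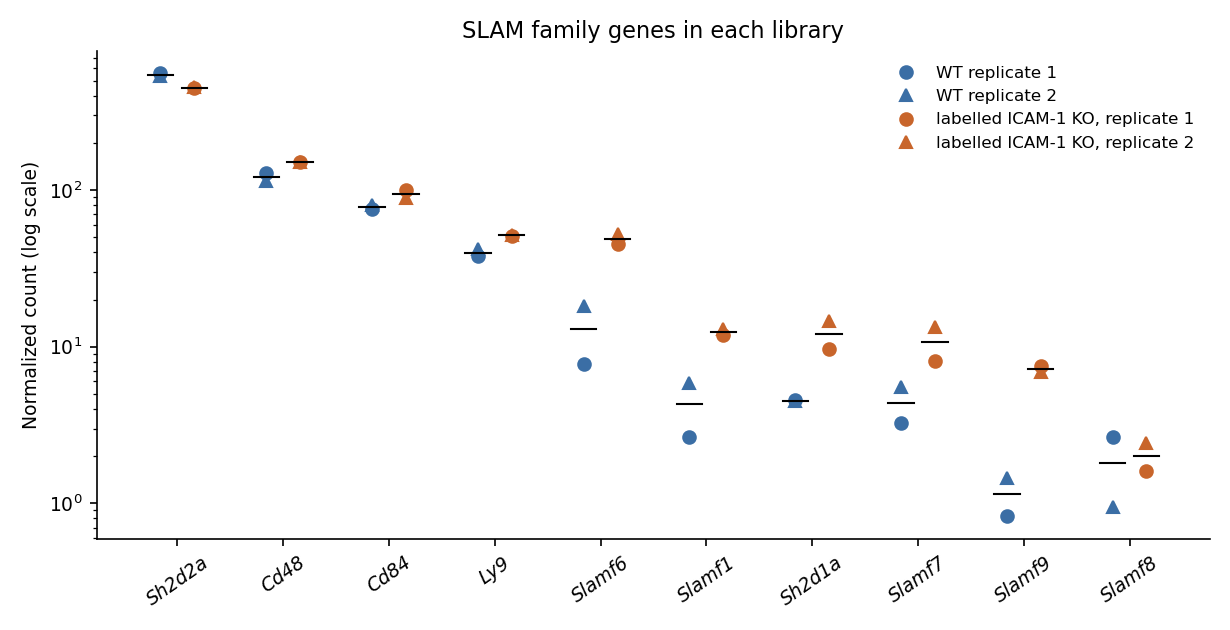
Normalized count (log axis) of each of the 10 genes in every library, with points for single libraries and horizontal lines for group means. Slamf6, Slamf1, Slamf7, Slamf9 and Sh2d1a are higher in each KO-labelled library than in any WT library. Cd48, Cd84 and Ly9 are so too, by less, Sh2d2a is lower in each, and Slamf8 overlaps.

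Between the groups, 5 of the 9 members tested passed the test and all 5 were higher in the KO-labelled libraries, each by at least 2-fold, beside 8.8% of the 11711 genes tested that were called higher and 4.94% that were called higher by at least 2-fold. No member was called lower (4.97% of all genes were), and the edgeR count at an unadjusted p under 0.05 was 9 of 9 tested, 8 of them higher, beside 3542 of the 11711 genes. The groups did not overlap for 8 members that were higher and for 1 that was lower, beside 28.3% and 31.3% of all genes. Without a filter on low counts 2 members were called, and with a library left out 2 (without the first WT library), 3 (without the second WT or the second KO-labelled library) or 5. The rule that chose the genes used these values, and nothing is read from the counts. The median log2 fold change of the 9 was 1.32, and that of all genes 0.01. The summed normalized count of the 10 members was 825 and 808 in WT and 836 and 850 in the others, and most of it was Sh2d2a.

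Slamf6, a self-binding receptor of T, B and NK cells, was counted 234 and 574 times in WT and 1311 and 1649 in the KO-labelled libraries. The mean normalized count rose from 13 ± 7.39 (SD, n = 2) to 49.1 ± 4.97, a log2 fold change of 1.94 (SE 0.297, adjusted p = 0.00483 by edgeR). The WT libraries differed from each other by 2.35-fold and the other pair by 1.15-fold. The log2 fold change was 1.46 without the first WT library and 2.69 without the second. Slamf1, the first member of the family and a self-binding receptor of T and B cells and macrophages, had 80 and 185 counts against 338 and 405. It rose by 1.55 on the log2 scale (SE 0.353, adjusted p = 0.0228), from 4.28 ± 2.27 to 12.4 ± 0.826, and the WT libraries differed by 2.2-fold. Without the first WT library its log2 fold change was 1.1 and its adjusted p = 0.0893 by edgeR. Both genes were lowest in the first WT library, and the libraries of the 2 groups did not overlap.

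Sh2d1a, the adaptor of these receptors, had 137 and 141 counts in WT and 278 and 453 in the KO-labelled libraries. It rose from 4.53 ± 0.042 to 12.1 ± 3.38, with a log2 fold change of 1.46 (SE 0.32, adjusted p = 0.0198 by edgeR). The second KO-labelled library was the highest. The adjusted p by edgeR was 0.0792 without the first WT library, 0.084 without the second and 0.0943 without the second KO-labelled library. Of the 11 T cell genes listed, 6 were higher and none lower by adjusted p, beside 8.8% and 4.97% of all genes tested. The median log2 fold change was 0.72, and no marker of the list was at 0 in any library. Trac, the constant region of the T cell receptor alpha chain and chosen after its values were seen, had 1779 and 2485 counts in WT and 5278 and 7047 in the others. Per 100 counts of Trac, Slamf1 stood at 4.5 and 7.44 in WT and at 6.4 and 5.75 in the KO-labelled libraries, and Sh2d1a at 7.7 and 5.67 against 5.27 and 6.43. On this measure the groups overlapped for both genes. Slamf6 stood at 13.2 and 23.1 against 24.8 and 23.4, and the second WT library lay close below both others. The list did not move as one, since Trbc2, its most abundant gene, had a log2 fold change of 0.25 (adjusted p = 0.0987 by edgeR), and Cd3e and Cd3g, components of the CD3 complex and also chosen after their values were seen, had 0.17 (adjusted p = 0.69) and -0.33 (adjusted p = 0.158). With 100 counts of Trbc2 as the divisor the groups stayed apart for all 3 members, with Slamf1 at 1.08 and 2.45 against 4.36 and 4.38, Slamf6 at 3.15 and 7.6 against 16.9 and 17.8, and Sh2d1a at 1.85 and 1.87 against 3.59 and 4.9. Cd4 and Foxp3 were divisors too, chosen after their values were seen. Per 100 counts of Cd4, Slamf6 stood at 34.7 and 66.6 against 74.1 and 65.3, and the groups overlapped for all 3 members. Per 100 counts of Foxp3, Slamf1 and Slamf6 overlapped, and Sh2d1a was lower, at 10.7 and 8.28 against 6.14 and 7.98. Per 100 counts of Cd3g all 3 stayed apart, with Slamf6 at 6.81 and 14.3 against 56.1 and 49.1. The overlap per Trac thus depends on which T cell gene is the divisor. Overlap was not particular to T cell divisors, as Lyz2, a myeloid gene, and Cd79b, a B cell gene, show. Both were chosen as divisors after their values were seen. Per 100 counts of Lyz2 the groups overlapped for all 3 members. Slamf6 stood there at 4.56 and 10.6 against 13.2 and 9.11, and Sh2d1a at 2.67 and 2.6 against 2.81 and 2.5. Per 100 counts of Cd79b all 3 stayed apart, with Slamf6 at 17.9 and 42.1 against 64.3 and 83.5. The part of T cell RNA in these differences was not tested.

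Slamf7, a receptor of plasma cells, NK cells and activated macrophages, was counted 98 and 174 times in WT and 234 and 417 in the KO-labelled libraries. It rose from 4.4 ± 1.61 to 10.7 ± 3.65 (log2 fold change 1.32, SE 0.376), and its adjusted p of 0.0486 by edgeR was just under the threshold. Leaving out the first WT library gave an adjusted p of 0.194, leaving out the second 0.0756, and leaving out the second KO-labelled library 0.224. Of the B and plasma cell genes listed, 9 were tested, and none was at 0. Of those tested, 6 were higher and none lower, beside 8.8% and 4.97% of all genes tested. Per 100 counts of Mzb1, a plasma cell gene chosen after its values were seen, Slamf7 stood at 25.1 and 12.9 in WT. It stood at 9.87 and 13.2 in the others, and the groups overlapped. Divisors from other cell types, chosen in the same way, gave overlap too. Slamf7 stood at 1.9 and 3.2 against 2.36 and 2.3 per Lyz2, and at 5.49 and 6.99 against 4.43 and 5.92 per Trac. Per Trbc2 the groups stayed apart, at 1.32 and 2.3 against 3.02 and 4.51. The parts of plasma cell, myeloid and T cell RNA in the difference were not tested.

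Slamf9, a receptor of myeloid cells with a short tail, showed the largest change of the members. It was counted 24 and 45 times in WT and 215 and 214 in the KO-labelled libraries, and its mean normalized count rose from 1.14 ± 0.446 to 7.17 ± 0.458 (log2 fold change 2.70, SE 0.429, adjusted p = 0.00594 by edgeR). The WT libraries differed by 1.76-fold and the KO-labelled libraries by 1.09-fold, and Slamf9 passed the filter on low values through the KO-labelled libraries alone. Of the genes of macrophages, monocytes and dendritic cells, 13 were tested, 9 were higher and none lower, beside 8.8% and 4.97% of all genes tested. Their median log2 fold change was 1.14, and no marker was at 0. Per 100 counts of Csf1r, the receptor of a macrophage growth factor and chosen after its values were seen, Slamf9 stood at 2.93 and 6.48 in WT and at 15.7 and 11.7 in the others, without overlap. Set against 100 counts of Lyz2 it stood at 0.468 and 0.83 against 2.17 and 1.18. The list did not rise evenly, and the log2 fold change was 1.14 for Csf1r and 1.46 for Lyz2. Marco and Mpeg1, chosen after their values were seen, had 2.79 (adjusted p = 0.0487) and 2.36 (adjusted p = 0.0165) by edgeR. Like Slamf9, Marco and Mpeg1, with WT means of 0.977 and 1.96, passed the filter on low values through the KO-labelled libraries alone. Xcr1, chosen in the same way, had 0.20 (adjusted p = 0.723). No ratio of Slamf9 to Marco, Mpeg1 or Xcr1 was taken. The part of myeloid RNA in the difference was not tested.

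Slamf8, the other myeloid receptor with a short tail, was counted 80 and 29 times in WT and 45 and 75 in the KO-labelled libraries. Its normalized counts of 1.81 ± 1.22 and 2.01 ± 0.583 overlapped, and the summed normalized count of 7.64 was under the minimum of 10 set for the test. Fitted without a filter, its log2 fold change was 0.16 (SE 0.602, adjusted p = 0.912 by edgeR).

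The abundant receptors differed less. Cd48 had 3920 and 3592 counts in WT and 4367 and 4776 in the others, normalized 122 ± 11.1 and 152 ± 0.413, with a log2 fold change of 0.35 (SE 0.0998, adjusted p = 0.0501 by edgeR). Ly9, a self-binding receptor of lymphocytes, had 1144 and 1321 counts against 1478 and 1633, with a log2 fold change of 0.40 (SE 0.128, adjusted p = 0.0678). Cd84, a self-binding receptor found on many blood cells, had 2279 and 2538 against 2872 and 2780, with a log2 fold change of 0.30 (SE 0.108, adjusted p = 0.0971). None of these 3 passed the test, although the libraries of the 2 groups did not overlap. Per 100 counts of Ptprc, the pan-leukocyte phosphatase CD45, Cd48 stood at 18.3 and 16.2 in WT and at 16.5 and 17 in the others, Cd84 at 10.7 and 11.5 against 10.8 and 9.88, and Ly9 at 5.35 and 5.97 against 5.58 and 5.81, and the groups overlapped for all 3. On the same measure the 5 members called higher stayed apart, with Slamf1 at 0.374 and 0.835 against 1.28 and 1.44, Slamf6 at 1.09 and 2.59 against 4.95 and 5.86, Sh2d1a at 0.641 and 0.637 against 1.05 and 1.61, Slamf7 at 0.457 and 0.785 against 0.883 and 1.48, and Slamf9 at 0.112 and 0.203 against 0.812 and 0.761. Ptprc itself rose by 0.39 on the log2 scale (adjusted p = 0.0138 by edgeR), close to the changes of Cd48, Cd84 and Ly9. Per 100 counts of Il1rl1, the gene of ST2, Ly9 stood apart at 6.03 and 5.75 against 6.62 and 6.85, while Cd48 and Cd84 overlapped. Ly9 lies wholly inside Cd244a on the other strand, and since the use of strand in the counting is not given in the sources used here, reads of the 2 genes may be mixed. Cd244a, the receptor for Cd48, had 147 and 162 counts against 254 and 239 (adjusted p = 0.127).

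Sh2d2a was the one member with a negative log2 fold change. It had 16977 and 16916 counts in WT and 12925 and 14258 in the KO-labelled libraries, normalized 548 ± 17.5 and 451 ± 3.96, with a log2 fold change of -0.25 (SE 0.0803, adjusted p = 0.0678 by edgeR), and did not pass the test. The summed ILC2 list above was also lower in the second group, but its genes went both ways. Of 14 tested, 2 were called higher and 5 lower, beside 8.8% and 4.97% of all genes tested, with a median log2 fold change of -0.10. Il1rl1, which encodes the sort marker ST2 and was chosen after its values were seen, had a log2 fold change of 0.21 (adjusted p = 0.173 by edgeR). Per 100 counts of Il1rl1, Sh2d2a stood at 89.5 and 73.6 in WT and at 57.9 and 59.8 in the others. This ratio depends on the divisor. Arg1 and Id2, which lead the ILC2 list, fell by more than Sh2d2a. Their log2 fold changes were -0.65 (adjusted p = 0.00371) and -0.56 (adjusted p = 0.00743) by edgeR, and no ratio to them was taken. The part of the share of ILC2 RNA was not tested.

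**Figure D2:**
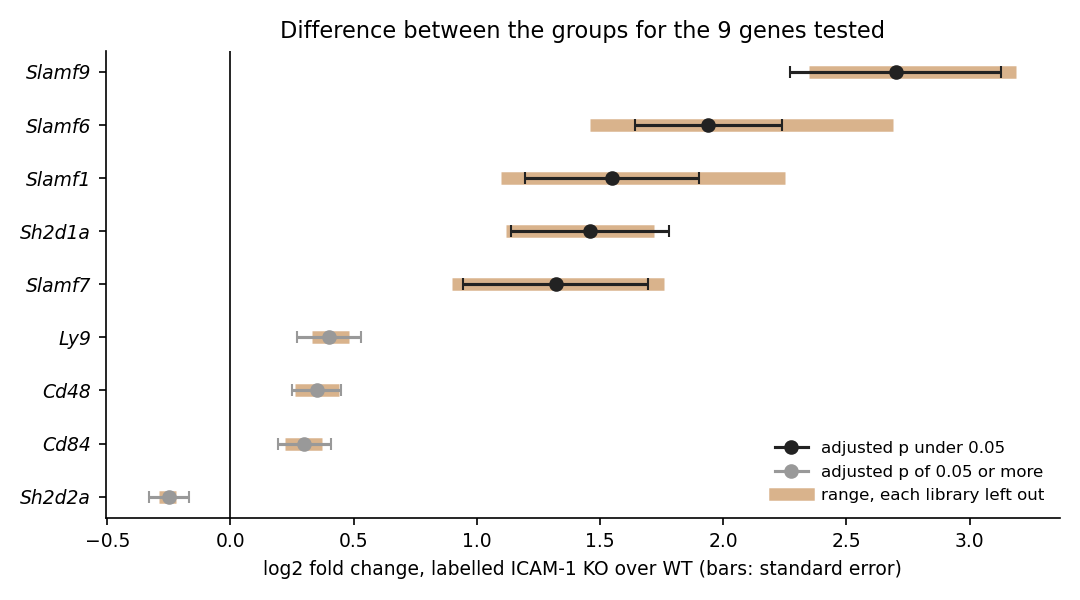
Log2 fold change (KO-labelled libraries over WT) of the 9 tested members, with bars for the SE and a band for the range over fits that each leave out a library. Slamf9, at 2.70, and Slamf6, at 1.94, are the highest, and Sh2d2a, at -0.25, is the only one below 0.

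**Figure D3:**
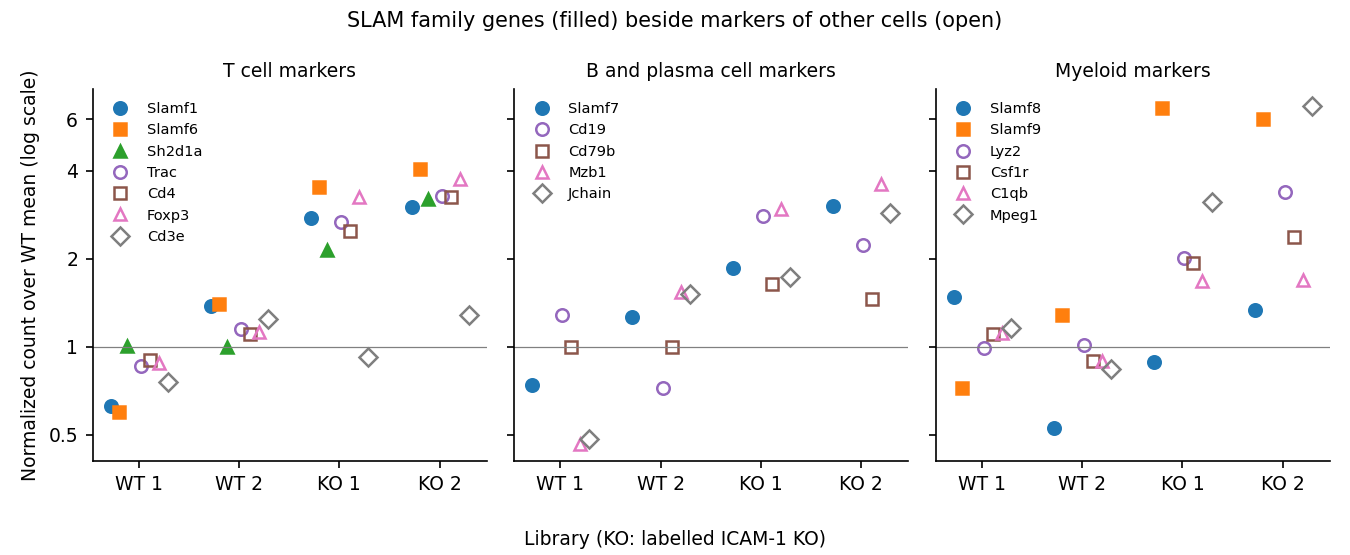
Normalized count over the WT mean (log axis) in the 4 libraries, for members (filled points) and markers of cell types (open points). Slamf1, Slamf6, Sh2d1a, Slamf7 and Slamf9 lie above the WT mean in each KO-labelled library, as do the markers drawn except Cd3e, while Slamf8 lies on both sides of it.

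Of 33 other genes of the SLAM pathway listed, 29 were tested, 6 were higher and none lower (20.7% called, beside 13.8% of all genes), and the median log2 fold change was 0.21. Leaving out the first or the second WT library left 3 called. Cd2, the T cell receptor for Cd48, was counted 1173 and 1451 times in WT and 3100 and 4161 times in the others and rose (log2 fold change 1.53, SE 0.143, adjusted p = 0.000655 by edgeR). The kinases Lck, which had 2504 and 3385 counts against 5334 and 6581 and rose by 1.08 (adjusted p = 0.00192), and Fyn, which rose by 0.44 (adjusted p = 0.0189), act with SAP (Fyn) and with TSAd (Lck). Ptprc rose by 0.39 (adjusted p = 0.0138), Prkcq, a protein kinase C of T cells, by 0.56 (adjusted p = 0.032) and Cblb, a ubiquitin ligase that restrains T cell activation, by 0.46 (adjusted p = 0.0488). Among the most abundant, Becn1, a partner of Slamf1 in phagosomes, had a log2 fold change of 0.01 (adjusted p = 0.953), Inpp5d, the inositol phosphatase SHIP-1, -0.01 (adjusted p = 0.95), and Vav1, a guanine exchange factor, -0.19 (adjusted p = 0.214). None of these 3 passed the test. For the pathway genes called higher, the part of T cell RNA in the differences was not tested. The SAP relative Sh2d1b1 had 36 and 28 counts in WT and 14 and 19 in the others and was not tested, and Sh2d4a (24 and 99 against 21 and 2) and Sh2d4b (2 and 2 against 1 and 24) were not tested either.

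The genes around the receptors on chromosome 1 did not share one direction. Within 1 Mb on either side and between the receptors, 37 genes that are no members were tested, 6 were higher and 8 lower (37.8% called, beside 13.8% of all genes), with a median log2 fold change of -0.02. Without the first WT library 8 were called and without the second 6. Among the genes that lie between the first and the last receptor, Ncstn (log2 fold change -0.65, adjusted p = 0.00459), Pex19 (-0.71, 0.0116) and Tagln2 (-0.54, 0.00446) fell and Pea15a (0.56, 0.0166) rose, and these 4 were chosen after their values were seen. Of the neighbours that changed by at least 2-fold, Fcgr2b, the inhibitory Fc receptor of B and myeloid cells, was counted 595 and 685 times against 1248 and 1382 and rose (log2 fold change 1.11, adjusted p = 0.0029 by edgeR). Itln1, an intestinal and airway lectin, had 14 and 4 counts in WT and 416 and 2688 in the others, and Gm9765, an unnamed locus, had 0 and 0 against 50 and 292. Dusp23, a phosphatase, was counted 497 and 604 times against 158 and 273 and fell (log2 fold change -1.29, adjusted p = 0.0179 by edgeR). Ifi206, an interferon-induced gene, fell from 198 and 223 to 22 and 12 (-3.55, 0.00343). Gm9765 and Itln1, with WT means of 0.0323 and 0.327, passed the filter on low values through the KO-labelled libraries alone. Ifi206, with a mean of 0.605 in the KO-labelled libraries, passed it through the WT libraries alone. The neighbours counted as called include these genes.

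**Figure D4:**
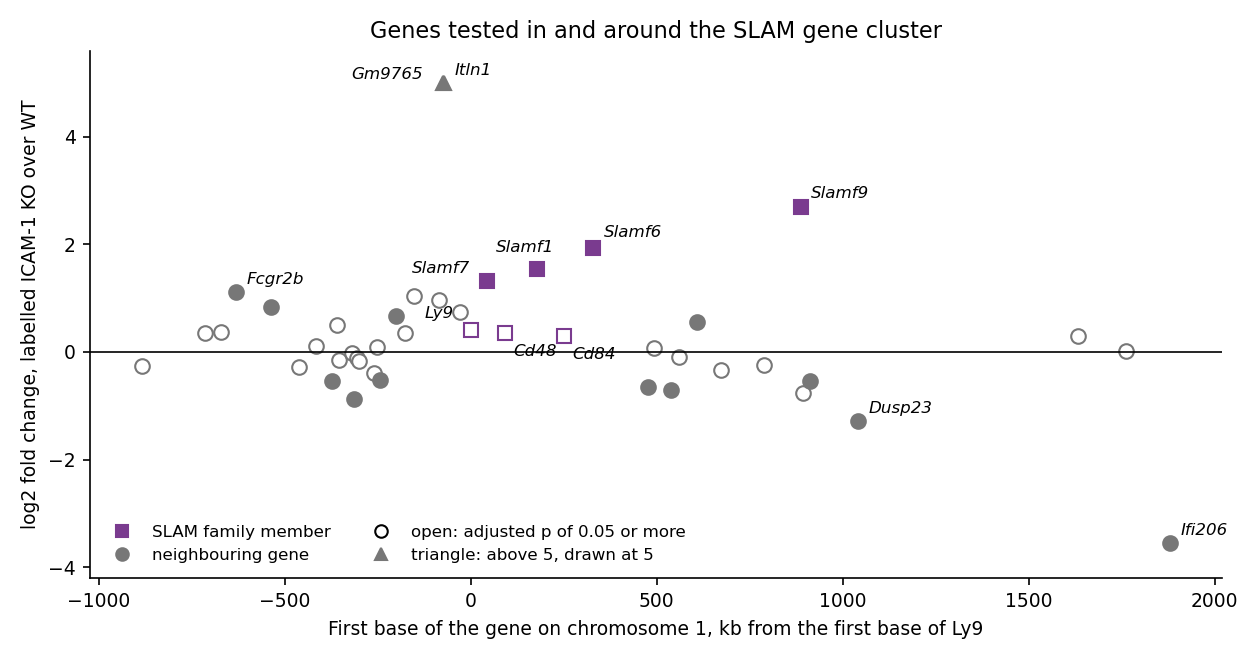
Log2 fold change of tested genes in and around the receptor cluster against the first base of each gene, in kb from the first base of Ly9. The members Slamf1, Slamf6, Slamf7 and Slamf9 are the receptors above 1, and genes between them lie on both sides of 0. Gm9765 and Itln1 lie above the axis and are drawn as triangles at 5.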

How the data were processed

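Activated lung ILC2s were sequenced as 2 WT and 2 ICAM-1 KO libraries, grouped by their labels. The authors aligned the reads to mm10 by STAR, used GENCODE M20 and deposited estimated counts per gene (E/M method of Partek), not normalized, and a normalized signal for 18324 genes, which equals the count plus 1 times 1 factor per library (upper quartile). Counts were rounded and tested with edgeR 4.0.16 (glmQLFit with legacy set to FALSE) in R 4.3.3, with upper quartile factors, over 11711 genes whose normalized counts averaged 1 or more and summed to 10 or more, and called at an adjusted p under 0.05 (Benjamini-Hochberg). Standard errors came from the log2 fold change and its F statistic. Levels per kb used merged exons of GENCODE M21. Depth was 24796148 to 28782471 counts, and without molecular identifiers a read is not an independent molecule. The fit was tested on simulated counts.

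The members and lists were chosen with earlier results of these data known. The genes named are the members, Icam1, pathway genes called or among the 5 most abundant, chromosome 1 neighbours called with a change of at least 2-fold, and up to 2 abundant genes per cell type list, and others are said to be chosen after their values were seen. Alternatives were TMM factors, DESeq2 1.42.0, limma 3.58.1 on log2 of the normalized count plus 1, other filters, the older form of the fit, a replicate block and each library left out. GSA of Partek was not run. The values of 1 pathway gene under this rule are not reported here. Replicate numbers 1 and 2 occur in both groups, with no source for a pairing.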

Additional observations from a re-analysis of the deposited data

How the results depend on the processing

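Without a filter on low counts, 2 members, 3 other SLAM pathway genes and 7 chromosome 1 neighbours were called, against 5, 6 and 14. Leaving out each library once gave 2 to 5, 3 to 5 and 6 to 13. The members called were 2 without WT replicate 1, 3 without WT replicate 2 and 3 without the second KO-labelled library. Single members had 72 results under the other settings, a count that leaves out the fits with a library left out. Of these 72, 60 kept their side of the threshold, 7 lost the call and 5 gained it, and none changed direction. Slamf6 and Slamf9 stayed called in every alternative run, though Slamf9 passed the main filter on low values through the KO-labelled libraries alone. Slamf1 (1.51) and Sh2d1a (1.41) lost the call without a filter. Slamf7 lost it with limma (1.12), without a filter (1.28), with at least 10 counts in every library (1.32), with filterByExpr (1.29) and with the older fit (1.32). Cd48 gained it with TMM factors (0.35), DESeq2 (0.34) and the replicate block (0.35). Sh2d2a gained it with DESeq2 (-0.26) and limma (-0.28). The ranges of the log2 fold change with a library left out were 1.1 to 2.25 for Slamf1, 1.46 to 2.69 for Slamf6, 0.9 to 1.76 for Slamf7, 2.35 to 3.19 for Slamf9, 0.26 to 0.44 for Cd48, 0.22 to 0.37 for Cd84, 0.33 to 0.48 for Ly9, 1.12 to 1.72 for Sh2d1a and -0.29 to -0.22 for Sh2d2a. Such fits leave 1 library in a group, which is assumed to vary like the other group. Slamf1 lost the call without WT replicate 1 (1.1, adjusted p = 0.0893), and Sh2d1a without the first WT, the second WT or the second KO-labelled library (adjusted p = 0.0792, 0.084 and 0.0943, edgeR). With exon length taken from the longest transcript, 4 of 10 members in WT and 3 in the KO-labelled libraries kept their rank by level per kb. With the replicate block, 6 members, 5 pathway genes and 14 neighbours were called. The deviations of libraries with the same number had a correlation of -0.0582 over 11711 genes, so the numbers are not treated as pairs. The causes of these shifts were not tested. With 2 pools per group, small changes of genes with few counts are beyond the reach of these data.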
